A study of Mus musculus with 6 samples.

Results

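The leptin receptor gene *Lepr* and 8 other genes that describe the stroma of the bone marrow niche were followed in single fibroblastic colonies (CFU-Fs) grown from the marrow of *Col10a1Cre; R26-tdTomato* mice. The 8 genes were the secreted or membrane-bound niche factors *Kitl* and *Il7*, the adhesion gene *Vcam1*, the transcription factor genes *Foxc1*, *Ebf1*, *Ebf2* and *Ebf3*, and the intermediate filament gene *Nes*. They were chosen by name, and all 9 were found among the 14735 genes of the expression table. All 9 had a normalized count over 10 in every colony. The comparison was between 3 tdTOMATO+ CFU-Fs and 3 tdTOMATO- CFU-Fs. Every colony carried both the Cre and the reporter allele and came from C57BL/6 mice of 2 months. All were lysed on day 10 of culture in 2% oxygen. Cre was driven by *Col10a1*, a gene of hypertrophic chondrocytes, so the red reporter marks cells whose ancestors once expressed it, and a colony without the reporter holds cells of another origin or cells in which recombination did not take place. Each library held the RNA of everything within the cylinder placed around 1 colony. The labels do not say that the colonies of a group came from separate mice, so p-values measure the spread between these colonies only.

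LEPR is the cell surface receptor for leptin, the hormone of fat cells, and signals mainly through JAK2 and STAT3. In adult mouse marrow, *Lepr* marks perivascular stromal cells that make CXCL12 and stem cell factor, the product of *Kitl*, and so keep haematopoietic stem cells in place and alive. The same stromal cells are a source of interleukin 7 for B cell precursors, and FOXC1 and EBF3 are needed in mice to keep them as niche cells rather than letting them turn to fat or bone.

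Reads in genes numbered 24085516 to 31046589 per library. Across all genes, limma, run on log2(normalized count + 1), called 198 of 14735 genes at an adjusted p under 0.05, of which 177 were higher and 21 lower in tdTOMATO+ CFU-Fs. All 19 genes of a marrow stroma list (fibrillar collagens, matrix proteins and stromal receptors) were measured. Of 15 macrophage markers, 10 were called higher in tdTOMATO+ CFU-Fs (1.2% of all genes were) and 0 lower, among them *Cd68*, *Csf1r* and *Emr1* (F4/80). Their summed normalized count was 65955 to 70749 in tdTOMATO+ and 37528 to 37763 in tdTOMATO- CFU-Fs. These markers moved with the groups compared, and the part of macrophage RNA in the differences described here was not tested. Without tdTOMATO+ replicate 1, tdTOMATO+ replicate 2 or tdTOMATO- replicate 2, the number of macrophage markers called was 1, 1 and 2. Calls over all genes fell in the same fits, from 198 to 17, 1 and 16. In bulk RNA of a colony, fewer cells of a type and less RNA per cell cannot be told apart.

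*Lepr* lies on chromosome 4 of the mouse genome (GRCm38, 101717404 to 101815352, plus strand), 58039 bases beyond the end of *Leprot*. *Leprot* encodes a small membrane protein that shares its name with the receptor and limits how much receptor reaches the cell surface. The sequences just upstream of the annotated starts of both genes, and of *Ebf3*, are shown because these 3 genes mark the pattern described below: the groups did not overlap for *Lepr*, they overlapped for its neighbour, and *Ebf3* was the other gene of the 9 whose groups stood apart with tdTOMATO+ higher. The sequences are from RefSeq (GRCm38.p6) for chr4:101717157-101717403 (*Lepr*, plus strand), chr4:101647533-101647717 (*Leprot*, plus strand) and chr7:137314446-137314695 (*Ebf3*, minus strand). Capitals mark a match to CCCNNGGG, the inverted repeat that EBF proteins bind, where N is any base.
Lepr: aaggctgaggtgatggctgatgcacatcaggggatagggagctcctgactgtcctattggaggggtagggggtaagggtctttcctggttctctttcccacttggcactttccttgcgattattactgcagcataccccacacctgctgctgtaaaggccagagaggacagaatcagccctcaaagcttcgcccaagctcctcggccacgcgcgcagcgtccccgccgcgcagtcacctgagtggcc
Leprot: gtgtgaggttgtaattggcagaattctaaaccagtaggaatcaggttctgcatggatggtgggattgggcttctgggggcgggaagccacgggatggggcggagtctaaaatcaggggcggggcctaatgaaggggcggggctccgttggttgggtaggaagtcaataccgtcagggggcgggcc
Ebf3: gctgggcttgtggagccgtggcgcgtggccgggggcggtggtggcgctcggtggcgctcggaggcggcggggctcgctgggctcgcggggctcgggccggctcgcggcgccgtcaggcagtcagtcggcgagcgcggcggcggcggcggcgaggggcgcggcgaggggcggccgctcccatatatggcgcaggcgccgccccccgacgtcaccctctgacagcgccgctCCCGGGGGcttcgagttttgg
The capitals in *Ebf3* begin 21 bases before the annotated start of the gene. Promoter windows of 250 bases before to 50 bases after a RefSeq start were at hand for 6 of the 9 genes (8 windows, of *Lepr*, *Kitl*, *Foxc1*, *Ebf1*, *Ebf3* and *Nes*). Read on both strands, CCCNNGGG was in 1 of these 8 windows, that of *Ebf3*, and in 4491 of all 32851 mouse windows (13.7%). The forkhead motif GTAAACA was in 0 of the 8 and in 1199 of the 32851 (3.65%), and the motifs can share no more than 1 end base. The *Ebf3* window shown was also rich in G and C (80.0% of bases), against 58.7% for *Lepr* and 58.9% for *Leprot*.

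*Lepr* had the largest difference between the groups among the 9 genes. Its normalized count was 408, 354 and 1132 in tdTOMATO+ replicates 1 to 3 and 97.3, 69.4 and 108 in tdTOMATO- replicates 1 to 3. Every tdTOMATO+ colony was above every tdTOMATO- colony, the lowest of the first group being over 3 times the highest of the second, and tdTOMATO+ replicate 3 stood above all others. The means were 632 ± 435 and 91.7 ± 20.03 (SD, n = 3 colonies each). On the log2 scale the difference was 2.59 (SE 0.46, 95% interval 1.47 to 3.71), which is 6.02-fold. The adjusted p of limma over all genes was 0.0647, so *Lepr* was not called, and the unadjusted p was 0.0012. The exact permutation test gave 0.1, the smallest p possible for 3 colonies against 3. On the reads recovered from the normalized counts, edgeR gave an adjusted p of 0.0816 and DESeq2 one of 4.93e-09. Without tdTOMATO+ replicate 3 the log2 difference was smaller, 2.07, but its limma adjusted p was 0.0317. The lowest colony rested on 72 reads, with a Poisson 95% interval of 56.3 to 90.7 for counting error only, and the highest on 1127.

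The neighbouring gene *Leprot* was flat. Its normalized count was 2488, 2534 and 2551 in tdTOMATO+ and 2438, 2601 and 2513 in tdTOMATO- replicates 1 to 3. The groups overlapped, and the log2 difference had a 95% interval of -0.13 to 0.14 (limma adjusted p 0.987). *Lepr* shares no exon bases with *Leprot* or with any other gene in the annotation used (GENCODE M21).

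**Figure D1:**
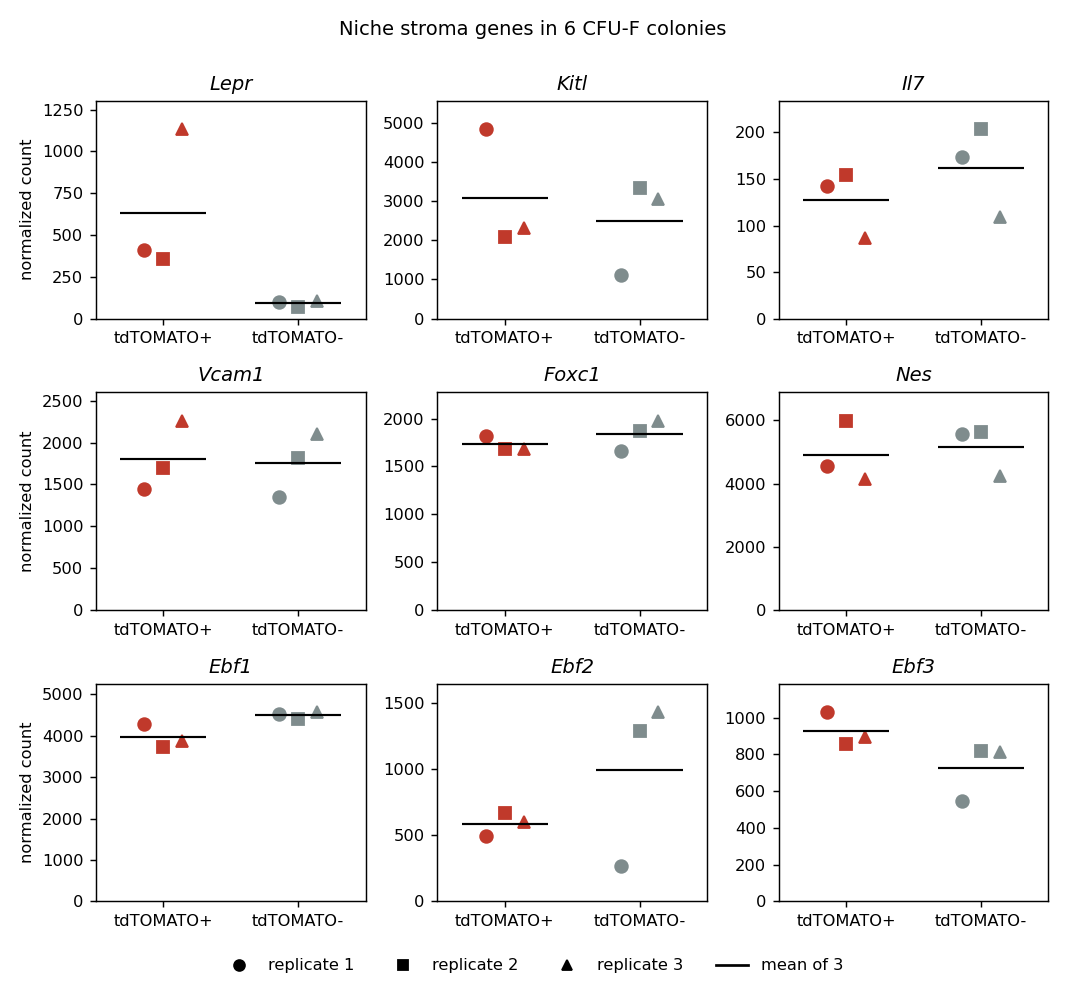
Normalized count (y axis, from 0) of each of the 9 genes in the 3 tdTOMATO+ (red) and 3 tdTOMATO- (grey) CFU-Fs; symbols give the replicate and lines the mean of 3. *Lepr* ranged from 354 to 1132 in tdTOMATO+ and from 69.4 to 108 in tdTOMATO- colonies, while *Kitl* and *Ebf2* had their lowest value in tdTOMATO- replicate 1 (1108 and 268).

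None of the 9 genes was called by limma, where 1.34% of all genes were. At an unadjusted p under 0.05 there were 2 of 9, *Lepr* and *Ebf1*, against 12.3% of all genes. edgeR called 0 of 9 (1.28% of all genes) and DESeq2 called 1, *Lepr* (4.64% of all genes tested). The groups did not overlap for 3 of the 9 genes, *Lepr* and *Ebf3* (higher in every tdTOMATO+ colony) and *Ebf1* (lower in every one), against 18.2% of all genes in either direction, 9.89% higher and 8.33% lower. The median log2 difference of the 9 was -0.07, with 4 above and 5 below 0. The median of all genes was -0.0046.

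*Kitl* encodes stem cell factor, the ligand of the receptor KIT. It lies on chromosome 10 (100015630 to 100100416, plus strand). Its normalized count was 4837, 2079 and 2320 in tdTOMATO+ and 1108, 3339 and 3052 in tdTOMATO- replicates 1 to 3. The highest colony was tdTOMATO+ replicate 1 and the lowest tdTOMATO- replicate 1, while in the other 4 colonies both tdTOMATO- values were above both tdTOMATO+ values. The log2 difference was 0.35 (SE 0.54, 95% interval -1.003 to 1.6997, limma adjusted p 0.876), and it turned to -0.03 without tdTOMATO+ replicate 1 and to -0.16 without tdTOMATO- replicate 1. The interval holds large changes in both directions, so a difference was not detectable with these colonies. The order of the colonies was unlike that of *Lepr*, in which tdTOMATO+ replicate 3 was highest and tdTOMATO- replicate 2 lowest.

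*Il7* encodes interleukin 7, a growth factor for B and T cell precursors, and lies on chromosome 3 (7569994 to 7613760, minus strand). It was the lowest of the 9 genes in tdTOMATO+ CFU-Fs once exon length was taken into account. Its normalized count was 142, 154 and 86.4 in tdTOMATO+ and 174, 203 and 109 in tdTOMATO- replicates 1 to 3. Replicate 3 was the lowest of both groups, and the groups overlapped. The log2 difference was -0.34 (95% interval -1.05 to 0.37, limma adjusted p 0.749). *Il7* shares 105 exon bases with the antisense gene *Gm16685*, and the strand setting of the counting is not given in the sources used here.

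*Vcam1* encodes an adhesion protein that holds integrin-bearing blood cells to stroma and endothelium, and macrophages of the marrow carry it too. It lies on chromosome 3 (116109949 to 116129688, minus strand). Normalized counts were 1443, 1700 and 2262 in tdTOMATO+ and 1350, 1811 and 2103 in tdTOMATO- replicates 1 to 3. The colonies of the groups were interleaved. The log2 difference was 0.04 (95% interval -0.49 to 0.56, limma adjusted p 0.973), and its sign turned without tdTOMATO+ replicate 3 or tdTOMATO- replicate 1 (-0.14 in both cases). *Vcam1* shares 61 exon bases with the antisense gene *Gm43109*.

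Of the 4 transcription factor genes, *Foxc1* varied least over all 6 colonies, and *Ebf1* less within groups (SE of the log2 difference 0.083 and 0.072). FOXC1 is a forkhead protein that sustains *Cxcl12* and *Kitl* expression in the mouse marrow niche. The gene, on chromosome 13 (31806633 to 31812476, plus strand), had normalized counts of 1823, 1683 and 1685 in tdTOMATO+ and 1665, 1871 and 1980 in tdTOMATO- replicates 1 to 3. The groups overlapped, and the log2 difference of -0.08 had a narrow 95% interval, -0.28 to 0.11 (limma adjusted p 0.774). Its relative *Foxc2* had 455, 543 and 394 in tdTOMATO+ and 641, 582 and 670 in tdTOMATO- replicates 1 to 3. These groups did not overlap, but the log2 difference of -0.45 was not called (SE 0.13, limma adjusted p 0.192).

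Of the 3 early B cell factor genes 0 were called by limma. *Ebf1*, which directs B cell development and is also expressed by marrow stroma, had 4291, 3738 and 3880 normalized counts in tdTOMATO+ and 4516, 4412 and 4575 in tdTOMATO- replicates 1 to 3. Every tdTOMATO+ colony was below every tdTOMATO- colony, by a small amount. The log2 difference was -0.18 (SE 0.07, 95% interval -0.35 to -0.02, unadjusted p 0.0351, limma adjusted p 0.350). *Ebf1* lies on chromosome 11 (44617317 to 45008091, plus strand). Of 10 B cell markers, 2 were measured (*Blnk* and *Cd79b*), the rest, *Cd79a* and *Pax5* among them, were not analysed here, and *Cd79b*, a chain of the B cell receptor, ranged from 0 to 8.58. *Blnk*, an adaptor that macrophages also express, was called higher in tdTOMATO+ CFU-Fs (log2 difference 0.99, limma adjusted p 0.0249), the direction opposite to that of *Ebf1*. The summed count of both markers was 284 to 347 in tdTOMATO+ and 139 to 167 in tdTOMATO- colonies.

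*Ebf2*, known in mice from brown fat cells and from immature cells of the bone lineage, lies on chromosome 14 (67233292 to 67430918, plus strand). It had 495, 672 and 598 normalized counts in tdTOMATO+ and 268, 1290 and 1434 in tdTOMATO- replicates 1 to 3. The tdTOMATO+ colonies were close together and lay between a single low and a pair of high tdTOMATO- colonies. The highest tdTOMATO- colony was 5.35 times the lowest. With all colonies the log2 difference was -0.44 (SE 0.67, 95% interval -2.12 to 1.24, limma adjusted p 0.875). Without tdTOMATO- replicate 1 it was -1.22 and was called (limma adjusted p 0.0164). *Ebf2* shares 424 exon bases with the antisense gene *Gm10860*.

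*Ebf3*, the member of the family that keeps mouse niche cells from turning to bone, lies on chromosome 7 (137193673 to 137314445, minus strand). It had 1031, 854 and 894 normalized counts in tdTOMATO+ and 545, 820 and 811 in tdTOMATO- replicates 1 to 3. Every tdTOMATO+ colony was above every tdTOMATO- colony, but tdTOMATO+ replicate 2 and tdTOMATO- replicate 2 were close, and tdTOMATO- replicate 1 was far below the rest. The log2 difference was 0.37 (SE 0.17, 95% interval -0.03 to 0.77, limma adjusted p 0.439), and 0.18 without tdTOMATO- replicate 1. *Ebf3* shares 355 exon bases with the antisense gene *Gm45278*.

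*Nes* encodes nestin, an intermediate filament protein used as a marker of perivascular stroma and of neural stem cells. The gene, on chromosome 3 (87971078 to 87980451, plus strand), had 4567, 5997 and 4156 normalized counts in tdTOMATO+ and 5559, 5638 and 4245 in tdTOMATO- replicates 1 to 3. The groups overlapped, with a log2 difference of -0.07 (95% interval -0.47 to 0.32, limma adjusted p 0.918). Of 4 other filament genes measured, *Synm* (synemin), *Des* (desmin), *Prph* (peripherin) and *Vim* (vimentin), 0 were called, and 0 of 4 had a log2 difference above 0. *Nes* is also found in pericytes, endothelium and glia. Of the markers of these cell types limma called 0 of 9, 0 of 7 and 0 of 3, and DESeq2 called *Cspg4* lower and *S100b* higher. Of all genes tested DESeq2 called 4.64% in either direction. The summed pericyte count was 147245 to 184621 in tdTOMATO+ and 138462 to 159303 in tdTOMATO- colonies. It was made up mostly of *Acta2* and *Tagln*, so it says little about the other pericyte markers. Of the 9 pericyte markers 5 had a log2 difference above 0, and *Cspg4* and *Rgs5* were among those below 0. For *Rgs5* the groups overlapped. The summed endothelial count was 234 to 252 in tdTOMATO+ against 142 to 238 in tdTOMATO- colonies, and the glial one 763 to 883 against 479 to 643. *Pecam1*, 1 of the endothelial markers, was at 0 in tdTOMATO+ replicate 1 and at most 48.2 elsewhere. *Flt1*, a VEGF receptor gene, was low throughout, with 16.5, 13.7 and 23.1 in tdTOMATO+ and 10.3, 6.75 and 1.002 in tdTOMATO- replicates 1 to 3 (log2 difference 1.72, limma adjusted p 0.360). The pericyte marker *Cspg4* (NG2) was lower in every tdTOMATO+ colony (log2 difference -1.10, limma adjusted p 0.0804), and the glial *S100b* was higher in every one (0.59, limma adjusted p 0.0828).

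**Figure D2:**
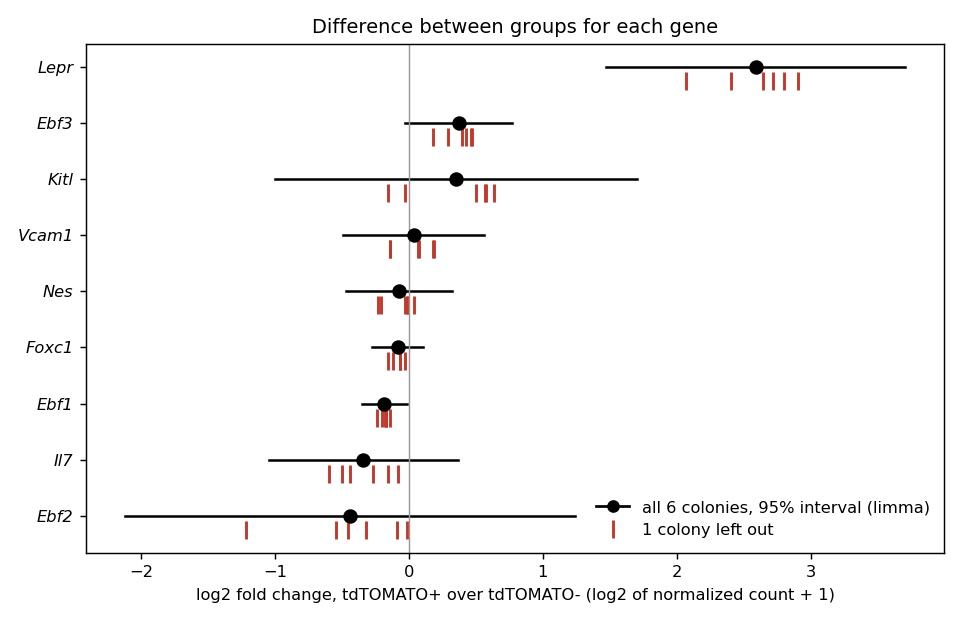
Log2 fold change of each gene (x axis, tdTOMATO+ over tdTOMATO-, from log2(normalized count + 1)), with points and black lines for all 6 colonies and the limma 95% interval, and red ticks for the fits with 1 colony left out. *Lepr* stayed between 2.07 and 2.90, whereas the values of *Kitl*, *Vcam1* and *Nes* fell on both sides of 0.

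Divided by the merged exon length, the levels set *Lepr* apart in another way. In normalized counts per kb, the group means in tdTOMATO+ CFU-Fs were 765 for *Nes*, 521 for *Kitl*, 407 for *Ebf1*, 296 for *Foxc1*, 203 for *Vcam1*, 100.4 for *Ebf3*, 89.6 for *Lepr*, 84.9 for *Ebf2* and 22.5 for *Il7*. The colonies of *Nes*, *Kitl* and *Ebf1* overlapped along this order, as did those of *Ebf3*, *Lepr* and *Ebf2*. *Foxc1*, *Vcam1* and *Il7* did not overlap their neighbours. In tdTOMATO- CFU-Fs the mean of *Lepr* was 13.0 per kb, the lowest of the 9, and *Lepr* was below *Il7* in each of these colonies (means 13.0 and 28.6 per kb). In tdTOMATO+ CFU-Fs it was above *Il7* in each, and in replicate 3 it passed *Ebf2* and *Ebf3* as well (161 per kb against 86.3 and 96.9). *Leprot* stood at 1330 and 1326 per kb in tdTOMATO+ and tdTOMATO- CFU-Fs. *Cxcl12*, the chemokine that names the CXCL12-abundant reticular cells, stood at 7799 and 6884 per kb, above every one of the 9 genes. The lengths are those of all transcripts of a gene merged, so a gene read mostly as a short transcript is understated.

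**Figure D3:**
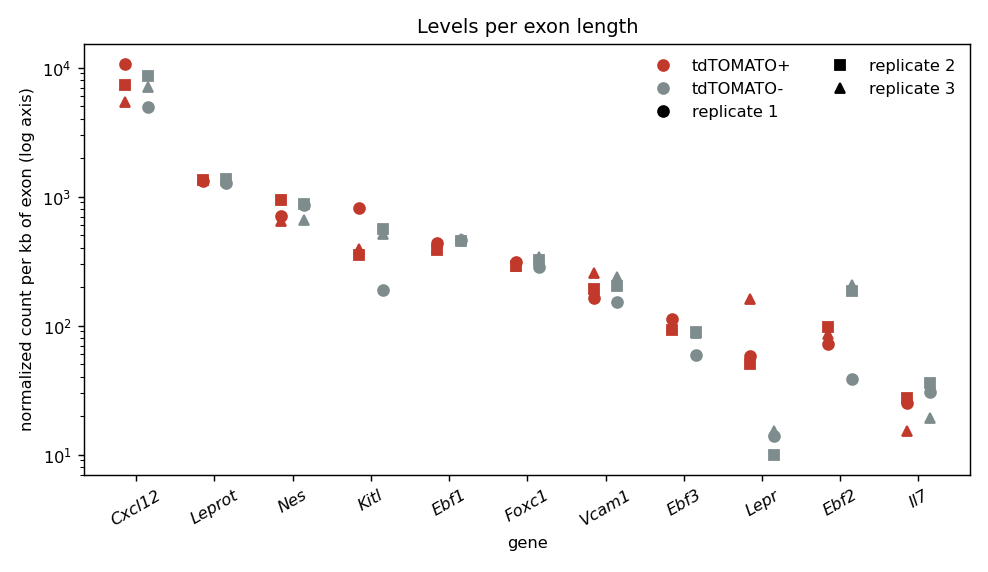
Normalized count per kb of merged exon (log axis) of the 9 genes, *Leprot* and *Cxcl12* in each colony (red for tdTOMATO+, grey for tdTOMATO-, symbols for replicates). *Lepr* ranged from 9.85 to 161 per kb over the 6 colonies and *Leprot* from 1284 to 1370.

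The profile of *Lepr* over the 6 colonies was compared with those of the other 11671 genes whose mean was 50 normalized counts or more. The measure was the root mean square difference of log2 values centred on each gene's own mean, which is 0 for a like profile. The 5 nearest genes were *Padi2* (0.41), *Akr1c18* (0.45), *Itgbl1* (0.46), *Plxdc1* (0.56) and *Nrcam* (0.59). *Padi2* encodes an enzyme that turns arginine in proteins to citrulline, and it had 191, 121 and 285 normalized counts in tdTOMATO+ and 21.8, 33.7 and 42.1 in tdTOMATO- replicates 1 to 3. *Itgbl1*, a secreted relative of the beta integrins, had 50.5, 117 and 165 in tdTOMATO+ and 19.5, 16.4 and 20.05 in tdTOMATO- replicates 1 to 3. In all 5 the groups did not overlap and tdTOMATO+ replicate 3 was the highest colony, as in *Lepr*. Since they were picked for a profile like that of *Lepr*, this separation and the calls follow from the choice and are descriptions only. limma called *Padi2* (adjusted p 0.0249) and *Itgbl1* (0.0491), but not *Akr1c18*, a steroid dehydrogenase gene, *Plxdc1*, a transmembrane receptor gene, or *Nrcam*, a neural adhesion gene (adjusted p 0.106, 0.0828 and 0.310).

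None of the other 8 genes was near *Lepr* by this measure. *Ebf3* was the closest at 1.27, which put it at rank 1064 of 11671, followed by *Vcam1* at rank 2379. *Foxc1*, *Kitl*, *Ebf1* and *Nes* had ranks 8004, 8549, 9466 and 9904. *Il7* and *Ebf2* were among the genes least like *Lepr*, at ranks 11338 and 11465. For a flat gene such as *Foxc1* this distance is close to the spread of *Lepr* itself. With 6 colonies in 2 groups no correlation was computed.

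A colony pattern of another kind joined several of the 9 genes. *Kitl*, *Ebf2*, *Ebf3*, *Vcam1* and *Foxc1* all had their lowest value in tdTOMATO- replicate 1. That is 5 of 9, against 19.5% of the 11672 genes with a mean of at least 50. For *Kitl*, *Ebf2* and *Ebf3* the next lowest colony was higher by 1.88, 1.85 and 1.49 times, and for *Vcam1* and *Foxc1* by 1.07 and 1.01 times. So 3 of 9 had their minimum there with a gap of at least 1.4-fold, against 1.81% of those genes. The colony and the gap were chosen after the values were seen, so these counts are descriptions. In the other 5 colonies 0.163% to 1.11% of genes had such a minimum. *Lepr* was not lowest in tdTOMATO- replicate 1, and its low level was shared by all tdTOMATO- colonies.

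Some other niche factors had the same low colony. Of 22 niche factor genes measured, 11 were lowest in tdTOMATO- replicate 1, and 4 of them by at least 1.4-fold. The shares of the 11672 genes were 19.5% and 1.81%. In other lists the lowest value was there for 4 of 19 marrow stroma genes, 3 of 15 macrophage markers and 6 of 16 leptin signalling genes. As the colony was chosen after the values were seen, these counts are descriptions too. *Angpt1*, a vessel-stabilizing ligand made by niche stroma, had 1757, 814 and 991 normalized counts in tdTOMATO+ and 432, 1166 and 1218 in tdTOMATO- replicates 1 to 3, an order of colonies close to that of *Kitl*. *Bmp4*, a bone morphogenetic protein gene, had 24.0 in tdTOMATO- replicate 1 and 312 to 359 in the other colonies. *Spp1* (osteopontin) had 15929 there and 59846 to 73283 elsewhere, and *Cxcl14*, a chemokine gene, had 349 there and 609 to 1461 elsewhere. *Cxcl12* had its lowest value there too, 40673, but tdTOMATO+ replicate 3 was close at 43947. Other genes of the list went the opposite way. *Ptn* (782), *Clec11a* (3260) and *Flt3l* (124) had their highest value of the 6 colonies in tdTOMATO- replicate 1. The log2 difference of *Cxcl12* between the groups was 0.16 (95% interval -0.58 to 0.90, limma adjusted p 0.905).

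Genes of the fat lineage were also low in that colony. All 4 adipocyte genes measured were lowest there, against 19.5% of the 11672 genes with a mean of at least 50. Like the counts above, this is a description, as the colony was chosen after the values were seen. *Lpl*, the lipoprotein lipase gene, had 2578 there and 3529 to 11198 in the others, and *Fabp4*, a fatty acid carrier gene, had 527 there and 739 to 3084 in the others. *Adipoq* (adiponectin) was at 0 there and at 36.0 to 100.5 elsewhere. The transcription factor genes *Cebpa* and *Pparg*, which drive fat cell formation, were lowest there as well (1328 against 1870 to 3261, and 887 against 1045 to 2094). *Cebpb*, another factor of fat cell formation, was not: it had 123 there and 85.2 to 133 in the other colonies. For *Lpl*, *Cebpa* and *Pparg* the highest values were in the other tdTOMATO- colonies. The groups overlapped for these genes, and 0 of the 4 adipocyte genes was called. Summed over these 4, counts were 5369 to 10618 in tdTOMATO+ and 3928 to 17067 in tdTOMATO- colonies. *Plin1*, which marks mature fat cells, was not analysed here. The part of fat lineage cells in the levels of *Kitl*, *Ebf2* and *Ebf3* was not tested.

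**Figure D4:**
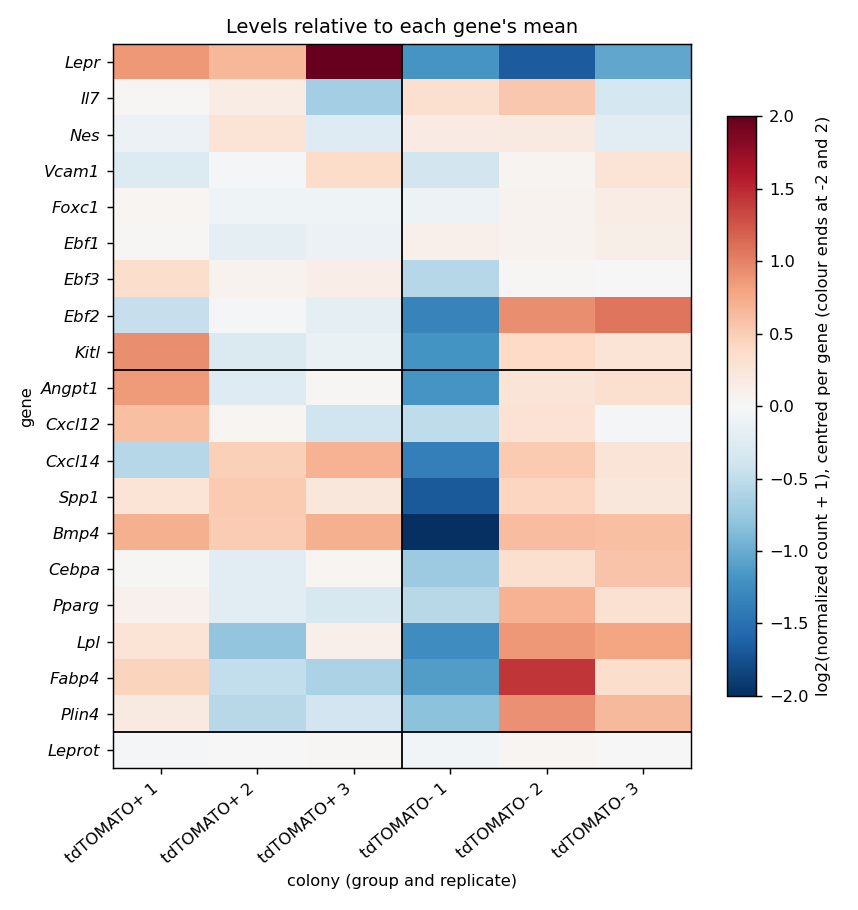
Log2 of the normalized count plus 1, centred on each gene's mean (colour, ends at -2 and 2), in the 6 colonies (columns). Rows are the 9 genes (top), other niche and fat lineage genes (middle) and *Leprot* (bottom). The middle genes shown are ones with their lowest value in tdTOMATO- replicate 1. *Kitl*, *Ebf2* and *Ebf3* are blue in tdTOMATO- replicate 1 together with *Angpt1*, *Bmp4*, *Spp1* and *Lpl*, whereas *Lepr* is blue in all 3 tdTOMATO- colonies.

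The pathways around the 9 genes were then counted over gene lists. Of the 22 niche factor genes, limma called 1 higher and 0 lower (median log2 difference 0.18), where 1.2% of all genes were called higher and 0.143% lower. The one called was *Igf1*, insulin-like growth factor 1, with 2764, 2920 and 3130 normalized counts in tdTOMATO+ and 1616, 1582 and 1213 in tdTOMATO- replicates 1 to 3 (log2 difference 1.01, SE 0.12, limma adjusted p 0.0139). Macrophages also make IGF1. *Lif*, a cytokine of the interleukin 6 family, and *Il15*, a growth factor of natural killer cells, were higher in every tdTOMATO+ colony but not called (log2 differences 0.49 and 0.65, limma adjusted p 0.203 and 0.229).

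Of 16 leptin signalling genes measured limma called 0 (median log2 difference 0.03) and DESeq2 called 1, *Jak2*, higher. Of all genes tested, limma called 1.34% and DESeq2 4.64% in either direction. *Lep* itself, the ligand gene, was not analysed here. *Jak2*, the kinase bound to LEPR, came first by p, with 3531, 3905 and 4623 normalized counts in tdTOMATO+ and 3312, 2721 and 2796 in tdTOMATO- replicates 1 to 3. The groups did not overlap and, as for *Lepr*, tdTOMATO+ replicate 3 was the highest. The log2 difference was 0.45 (SE 0.12, limma adjusted p 0.158, DESeq2 adjusted p 0.0269). *Grb2*, an adaptor, and *Pik3r1*, a regulatory subunit of PI3 kinase, followed with 0.16 and 0.19 (limma adjusted p 0.340 and 0.538). *Stat3* had 4842 to 5368 in tdTOMATO+ and 4627 to 5992 in tdTOMATO- colonies. *Socs3*, the feedback inhibitor of the receptor, had 1180 to 1369 in tdTOMATO+ colonies and 2850, 1234 and 1048 in tdTOMATO- replicates 1 to 3, so its one high value was in tdTOMATO- replicate 1. *Stat3* and *Socs3* were named after their values were seen.

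Of 9 receptor genes for the niche factors, limma called 1 higher and 0 lower (median log2 difference 0.44), against the same 1.2% and 0.143% of all genes. It was *Itga4*, the integrin chain that binds VCAM1, with 1188, 1147 and 1084 normalized counts in tdTOMATO+ and 642, 800 and 619 in tdTOMATO- replicates 1 to 3 (log2 difference 0.74, SE 0.11, limma adjusted p 0.0256). Blood cells carry this chain, macrophages included. Over the lists of niche factors, leptin signalling, receptors and stromal transcription factors together, the 2 genes called became 0 without tdTOMATO+ replicate 1 or tdTOMATO+ replicate 2, 1 without tdTOMATO+ replicate 3, tdTOMATO- replicate 2 or tdTOMATO- replicate 3, and 4 without tdTOMATO- replicate 1. Its partner *Itgb7* had 19.1 to 34.3 in tdTOMATO+ and 10.3 to 18.0 in tdTOMATO- colonies (limma adjusted p 0.419). *Il7r*, the receptor of interleukin 7, had 66.3 to 145 in tdTOMATO+ and 47.1 to 73.3 in tdTOMATO- colonies, which overlap (limma adjusted p 0.512).

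Of 18 stromal transcription factor genes, limma called 0 (median log2 difference -0.13). In 2 the groups did not overlap with tdTOMATO+ higher and in 2 with tdTOMATO+ lower, near the shares of all genes (9.89% and 8.33%). *Twist1*, a mesenchymal factor, had 950, 926 and 1228 normalized counts in tdTOMATO+ and 645, 706 and 706 in tdTOMATO- replicates 1 to 3 (log2 difference 0.58, limma adjusted p 0.0709). *Runx2*, the main regulator of osteoblasts, was also higher in each tdTOMATO+ colony (0.44, limma adjusted p 0.0921). *Snai2*, another mesenchymal factor, was lower in each (-0.38, limma adjusted p 0.0723), as was *Foxc2*. DESeq2 called 2 of the 18 higher and 1 lower (4.64% of all genes tested in either direction). Of the 19 marrow stroma genes limma called 0 (median log2 difference -0.26) and DESeq2 called 2 lower, *Mmp2* and *Col5a1*. The 3 with the smallest p, *Mmp2*, a matrix protease gene, *Col5a1*, a fibrillar collagen gene, and *Serpinf1*, an antiangiogenic factor gene, were lower in every tdTOMATO+ colony (log2 differences -0.40, -0.33 and -0.26, limma adjusted p 0.0801, 0.222 and 0.347).

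Markers of the skeletal lineages that *Lepr* cells can enter came last. Of 8 osteoblast genes limma called 0 (median log2 difference 0.24) and DESeq2 called 1 higher, *Ibsp*. DESeq2 called 4.64% of all genes tested in either direction. *Ibsp* (bone sialoprotein) had 36598, 15095 and 28720 normalized counts in tdTOMATO+ and 6371, 7005 and 3985 in tdTOMATO- replicates 1 to 3 (log2 difference 2.16, limma adjusted p 0.0757). The summed osteoblast count was 46302 to 77814 in tdTOMATO+ and 31498 to 37145 in tdTOMATO- colonies. It was higher in every tdTOMATO+ colony, as *Lepr* was, but was made up mostly of *Ibsp* and *Alpl*. The part of osteoblast genes in the *Lepr* difference was not tested. *Alpl*, alkaline phosphatase, was higher in every tdTOMATO+ colony (0.50, limma adjusted p 0.390), and *Bglap* (osteocalcin) had a log2 difference of -0.62 (limma adjusted p 0.336). Of the 8 osteoblast genes 5 had a log2 difference above 0. *Bglap2* (-0.35) and *Sp7* (-0.17) were below 0, as *Bglap* was. Of 6 chondrocyte genes limma called 0 (median log2 difference -0.66) and DESeq2 called 1 lower, *Sox9*, beside the same 4.64%. *Col10a1*, whose promoter drives Cre in these mice, had 634, 521 and 529 normalized counts in tdTOMATO+ and 597, 1178 and 799 in tdTOMATO- replicates 1 to 3, and the groups overlapped (log2 difference -0.56, limma adjusted p 0.425). *Sox9*, the chondrocyte regulator, was lower in each tdTOMATO+ colony (-0.77, limma adjusted p 0.183). *Acan* (aggrecan) was under 5 in every colony other than tdTOMATO- replicate 3, where it had 161. *Col2a1*, the type II collagen gene, was high in all colonies. It had 72608, 129948 and 18940 in tdTOMATO+ and 65479, 131016 and 136159 in tdTOMATO- replicates 1 to 3. The groups overlapped for *Col2a1* (log2 difference -0.90, limma adjusted p 0.734).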

How the data were processed

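RNA of 6 single CFU-F colonies (RNeasy Micro) was sequenced as 50 bp single-end reads. By the study's methods, trimming used TrimGalore and Cutadapt (20 nt or longer retained) and alignment used STAR with GRCm38 (Ensembl 73). Uniquely placed reads were assigned to genes by HTSeq, genes short of 10 reads in all libraries were dropped, and the authors scaled the counts by DESeq2 size factors. Versions and strand setting are not given in the sources used here. The deposited signal is this normalized count, a coverage of each gene by reads with no correction for length. The authors' own fold changes, p-values and ontology tables were not used. Reads were recovered as multiples of a step per library (100% of values whole within 0.001).

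Groups were compared with limma 3.58.1 (R 4.3.3; trend, robust) on log2(normalized count + 1), two-sided, Benjamini-Hochberg over 14735 genes, with all 6 colonies and no covariate. limma was made the main test because the deposited values are normalized, and count tests were run as alternatives. Single genes also had an exact permutation test. edgeR 4.0.16 (quasi-likelihood, TMM) and DESeq2 1.42.0 were run on recovered reads, and other pseudocounts (0.5, 5), a filter (mean of at least 10), no trend, scaling to stroma genes, a replicate block and leaving out each colony were tried. The limma, edgeR and DESeq2 steps were tested on simulated data. Named genes are the 9 genes, the 5 nearest to *Lepr*, the 3 of smallest p in each list, *Leprot* and *Cxcl12*; others were named after their values were seen. The 9 genes and the lists were chosen with earlier results of these data known. Gene coordinates and exon lengths are from GENCODE M21 (GRCm38). A list member listed under an older symbol was read under it (*Emr1*).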

Additional observations from a re-analysis of the deposited data

How the results depend on the processing

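The log2 difference of *Lepr* kept its direction under all 14 alternatives (2.07 to 2.90) and its side of the threshold under 10. It passed the threshold with DESeq2 (2.79), with the replicate number as a block (2.59, limma adjusted p 0.0394), scaled to the stroma list (2.89), and without tdTOMATO+ replicate 3. Leaving out 1 colony gave 2.07 to 2.90 with limma adjusted p from 0.0317 to 0.197. Under the stroma scaling each colony moves by a single offset in all genes, which took the prior degrees of freedom of limma for *Lepr* to 16058 (2.20 otherwise), so its p is not read here. The labels do not say whether same-numbered colonies of the groups share a mouse or a plate. The correlations of their deviations were 0.1001, 0.0123 and 0.200. With 1 colony of each group per number these cannot show or exclude a pairing, so the block is given as an alternative only.

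Of the 9 genes 0 were called, and 1 was called with DESeq2, the block, the stroma scaling and without tdTOMATO+ replicate 3 (*Lepr* each time), and 1 without tdTOMATO- replicate 1 (*Ebf2*), for a range of 0 to 1 when leaving out 1 colony. The 198 genes called became 1 for limma without the trend, 657 for DESeq2 and 1 to 222 when leaving out 1 colony (1 without tdTOMATO+ replicate 2). The 2 genes called in the 4 pathway lists became 0 without the trend, 6 with DESeq2 and 0 to 4 when leaving out 1 colony. So *Igf1* and *Itga4* were called in some of these fits only. The 10 macrophage markers called became 0 without the trend and 1 to 11 when leaving out 1 colony. Directions turned for *Kitl* (-0.16 to 0.64; -0.031 without tdTOMATO+ replicate 1), *Vcam1* (-0.14 to 0.18) and *Nes* (-0.23 to 0.036) when 1 colony was left out. Under the stroma scaling *Ebf1* (0.11), *Foxc1* (0.21) and *Nes* (0.22) turned as well, but that scaling moved the median of all genes to 0.29, and relative to that shift all 3 stayed below the median. The offset came mostly from tdTOMATO- replicate 3, whose stroma score was 0.56 above the mean. The score is the mean log2 value of the 19 stroma genes. Part of the 0.56 rests on 1 of them, *Lum*, with 796 normalized counts there and 11.3 to 18.3 in the other colonies. With 3 colonies a group, moderate differences in variable genes such as *Kitl* and *Ebf2* were not detectable.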

Other observations

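The genes nearest to *Kitl* and *Ebf2* were looked up by the same measure of likeness as for *Lepr*, a choice made after the values were seen. The gene nearest to *Kitl* of all 11671 was *Angpt1* (root mean square difference 0.09 on the log2 scale), followed by *Ms4a4d* (0.13). Both *Kitl* and *Angpt1* encode ligands by which niche stroma acts on haematopoietic stem cells. Among the 5 genes nearest to *Ebf2* were *Hgf*, hepatocyte growth factor (0.28), and *Pdgfra*, a receptor used to sort mesenchymal progenitors (0.31). *Pdgfra* had 2018, 1590 and 1836 normalized counts in tdTOMATO+ and 874, 2815 and 3546 in tdTOMATO- replicates 1 to 3, the same single low and pair of high tdTOMATO- colonies as *Ebf2*. *Hgf* had 512, 393 and 544 in tdTOMATO+ and 267, 1170 and 1427 in tdTOMATO- replicates 1 to 3. These are descriptions over 6 colonies and were not tested.

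*Lum* (lumican), a small matrix proteoglycan gene, had 796 normalized counts in tdTOMATO- replicate 3 and 11.3 to 18.3 in the other 5 colonies.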
